A study of Homo sapiens with 9 samples.

Results

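The genes described here are 8 members of the epidermal growth factor (EGF) receptor system: the ligand genes EREG, AREG, TGFA, HBEGF and BTC, and the receptor genes EGFR, ERBB2 and ERBB3. They were taken by their symbols from a table of 17492 genes, all 8 were found, and all 8 passed the filter on low counts, which kept 12832 genes. RNA was sequenced from HCCLM3, an established line of human hepatocellular carcinoma cells with a high metastatic capacity, labelled as wild type. Groups of 3 libraries each received the vehicle DMSO (control), quercetin at 50 µM or quercetin at 100 µM, and the series asks what this plant flavonol does in hepatocellular carcinoma. How long the cells were treated is not stated in the labels. All groups are the same cell line, and no source used here says whether the replicates were separate cultures, so the p-values reflect no more than the spread among these libraries, which may be technical. The comparisons of 50 µM and 100 µM with the control share the 3 control libraries, and their values are not independent.

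The ERBB receptors are receptor tyrosine kinases that pair up on binding a ligand and then drive the RAS-ERK and PI3K-AKT pathways. Epiregulin (EREG), amphiregulin (AREG), transforming growth factor alpha (TGFA), heparin-binding EGF-like growth factor (HBEGF) and betacellulin (BTC) all bind EGFR, and all are made as membrane-bound precursors that metalloproteases such as ADAM17 release. ERBB2 has no known ligand of its own and acts as a partner of the other receptors. ERBB3 binds neuregulins and signals mainly through PI3K when paired with ERBB2. In liver, EGFR is abundant in hepatocytes, and ligands such as amphiregulin, transforming growth factor alpha and HBEGF are known for their part in regeneration.

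The libraries held 20061031 to 21599661 estimated counts. A chi-square of the counts, averaged per gene, was 26.7 and 26.6 for control replicate 1 set against replicates 2 and 3, and 3.52 for replicates 2 and 3 themselves. For quercetin 100 µM replicate 3 it reached 79.6 and 81.6, while replicates 1 and 2 of that dose gave 4.87 and the 50 µM libraries 4.13 to 4.62. Results are therefore given with all 9 libraries and also without both of these. The summed TPM (a relative level that is scaled for transcript length) of 11 hepatocyte and hepatoma markers ran over 5809 to 6760 in controls, 5179 to 5320 at 50 µM and 4050 to 6084 at 100 µM, led by KRT8. Of 10 tested markers 3 were called higher (ALB, TF and FGB) and 3 lower (APOB, SERPINA1 and HNF4A) at 50 µM. Of all tested genes 5.28% were called higher and 6.31% lower at that dose. At 100 µM 3 markers were higher and 1 lower, against 10.7% and 10.3% of all tested genes. ALB was low in controls, at 1.24 ± 0.706 CPM, and APOA1 had at most 4 estimated counts in any library. The fibroblast list summed to 57.7 to 87.4, 66.2 to 73.6 and 63.6 to 110 TPM in the order control, 50 µM and 100 µM. Most of it was LUM, with means of 71.4, 69.5 and 76.3 TPM. COL1A2 and PDGFRB, of 7 markers, were under 0.1 TPM in every library. The leukocyte list summed to 185 to 257, 164 to 181 and 254 to 377 TPM, nearly all of it CD68, with CD3E, of 6 markers, under 0.1 TPM in every library. The endothelial list of 5 markers summed to 19.9 to 22.4, 10.3 to 12.2 and 10.97 to 14.2 TPM, led by PECAM1. The part of the fibroblast, leukocyte and endothelial markers in the results was not tested.

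EREG, AREG and BTC lie in that order on chromosome 4 (GRCh38, positions in the authors' table). EREG (gene 2069) spans chr4:74365145-74388749, AREG (gene 374) chr4:74445136-74455005 and BTC (gene 685) chr4:74744759-74794718. EREG ends 56.4 kb before AREG starts, and AREG ends 289.8 kb before BTC starts. TGFA (gene 7039) is at chr2:70447284-70611554 and HBEGF (gene 1839) at chr5:140332843-140346603. Among the receptors, EGFR (gene 1956) is at chr7:55019017-55216855, ERBB2 (gene 2064) at chr17:39688094-39728660 and ERBB3 (gene 2065) at chr12:56080108-56103505.

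The promoter windows of EREG, AREG and TGFA are shown because these were the 3 ligand genes that were called lower at 50 µM. Each runs from 250 bases before to 50 bases after an annotated transcription start, from RefSeq on GRCh38.p14. EREG is chr4:74364895-74365194 on the plus strand, AREG chr4:74444886-74445185 on the plus strand and TGFA chr2:70553777-70554076 on the minus strand. Capitals mark matches, on either strand, to the cAMP response element TGACGTCA, the AP-1 motif TGANTCA, the aryl hydrocarbon receptor core GCGTG, the HIF core ACGTG, the GC box GGGCGG and the TATA motif TATAAA.
EREG: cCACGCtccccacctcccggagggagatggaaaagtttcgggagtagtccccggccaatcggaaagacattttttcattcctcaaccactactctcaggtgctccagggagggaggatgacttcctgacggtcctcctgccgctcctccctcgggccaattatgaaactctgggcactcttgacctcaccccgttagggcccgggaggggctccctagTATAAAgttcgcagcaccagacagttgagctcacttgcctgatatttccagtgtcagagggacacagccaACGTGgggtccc
AREG: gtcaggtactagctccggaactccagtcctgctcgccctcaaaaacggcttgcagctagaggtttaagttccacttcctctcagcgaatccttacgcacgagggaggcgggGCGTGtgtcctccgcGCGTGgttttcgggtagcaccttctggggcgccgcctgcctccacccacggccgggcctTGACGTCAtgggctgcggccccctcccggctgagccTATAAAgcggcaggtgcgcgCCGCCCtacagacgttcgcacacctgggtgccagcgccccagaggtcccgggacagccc
TGFA: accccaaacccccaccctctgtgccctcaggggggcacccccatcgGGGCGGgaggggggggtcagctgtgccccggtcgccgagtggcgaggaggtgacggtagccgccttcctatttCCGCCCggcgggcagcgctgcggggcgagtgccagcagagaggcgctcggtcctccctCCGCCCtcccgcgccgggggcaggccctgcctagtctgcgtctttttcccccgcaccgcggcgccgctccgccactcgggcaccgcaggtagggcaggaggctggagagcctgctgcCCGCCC

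The windows of the neighbours EREG and AREG both held the TATA motif, starting at −32 in EREG and −29 in AREG, and 11.5% of all 35116 windows did. AREG also held the cAMP response element at −65, which 1.85% of all windows held. The GCGTG core, found in 36.5% of windows, matched in EREG at −249 and at 2 places in AREG. EREG held the ACGTG core at 39 bases after the start, a match that 21.4% of windows had. The TGFA window shown, 1 of 2 in the reference, held 4 GC boxes and no match to the other motifs. The GC box was found in 45% of windows, and AREG held 1 at −9. The TGFA window that is not shown held no GC box and had a GCGTG match at −51. AP-1 matches, present in 7.71% of windows, were in none of the 3 windows shown. A match in letters does not show that a factor binds.

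Quercetin at 50 µM lowered the 3 most abundant ligand genes, EREG, AREG and TGFA, by 2.92-fold to 3.91-fold. HBEGF and BTC, the least abundant ligands, lay below the control in every library, but their differences did not pass the test. Among the receptors, EGFR was on the lower side and ERBB3 on the higher side without passing the test. Of the 8 genes 3 were called lower and 0 higher by edgeR (quasi-likelihood test, adjusted p under 0.05 over all genes), where 6.31% of all tested genes were called lower and 5.28% higher. An unadjusted p under 0.05 was found for 6 of the 8, and for 32.2% of all tested genes, and DESeq2 called 5 of the 8, 4 lower and 1 higher, and 20% of all genes it tested. Groups did not overlap for 7 members, 6 of them lower and 1 higher, where 24.6% and 24.4% of all tested genes were lower and higher without overlap. The median log2 fold change was −0.59 over the 8 genes and 0.0033 over all tested genes.

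EREG had a normalised read count (CPM, scaled by TMM) of 165, 302 and 267 in control replicates 1, 2 and 3, of 70.2, 58.9 and 58.6 at 50 µM, and of 78.0, 66.7 and 53.7 at 100 µM. Every quercetin library lay far below the lowest control, which was replicate 1, and the doses overlapped. At 50 µM it averaged 62.5 ± 6.61 CPM, against 245 ± 70.9 CPM in the control (SD, n = 3 each), a log2 fold change of −1.97 ± 0.218 (SE; 95% interval −2.45 to −1.48; edgeR adjusted p = 0.00286). At 100 µM it averaged 66.1 ± 12.2 CPM, and the log2 fold change against control was −1.89 ± 0.217, a 3.7-fold fall (edgeR adjusted p = 0.000864). EREG was called lower at both doses under all 16 alternative settings. RNA was taken from whole cultures, so fewer cells expressing a gene and less RNA per cell cannot be told apart.

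AREG was at 34.9, 47.2 and 53.4 CPM in the controls, 13.6, 11.9 and 12.1 CPM at 50 µM, and 23.4, 22.6 and 7.76 CPM at 100 µM. All quercetin libraries were below all controls, and at 100 µM replicate 3 fell under the whole 50 µM group while replicates 1 and 2 stood above it. The log2 fold change at 50 µM was −1.85 ± 0.343, a 3.6-fold fall (edgeR adjusted p = 0.0153). The edgeR adjusted p rose to 0.0711 when control replicate 2 was omitted, to 0.0788 with control replicate 3 omitted, and to 0.0705, 0.0643 and 0.0831 with replicates 1, 2 and 3 at 50 µM omitted in turn, and each of these ended the call. Against control, AREG at 100 µM changed by −1.33 ± 0.336 on the log2 scale, a 2.52-fold fall (edgeR adjusted p = 0.0223). Omitting control replicate 2 (edgeR adjusted p = 0.0752) or 3 (0.0894), or fitting these 2 groups by themselves (0.0795), ended that call.

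TGFA had 26.1, 49.5 and 49.7 CPM in the controls, 12.997, 14.2 and 15.7 CPM at 50 µM, and 25.1, 25.3 and 7.86 CPM at 100 µM. The lowest control, replicate 1, stood just above the highest library at 100 µM, so that the groups did not overlap by a narrow margin. At 50 µM TGFA had a log2 fold change of −1.55 ± 0.394 (95% interval −2.43 to −0.66; edgeR adjusted p = 0.0356). This is the least stable of the 3 ligand calls at 50 µM by the number of the 16 settings that lost it, which was 8. It ended on omitting control replicate 2 (edgeR adjusted p = 0.141) or 3 (0.14), on omitting 50 µM replicate 1 (0.129), 2 (0.115) or 3 (0.125), with no filter on low counts (0.0613), with the replicate numbers as a block (0.079) and in limma on log2(TPM + 1) (0.0532). At 100 µM the log2 fold change was −1.10 ± 0.387 (95% interval −1.97 to −0.24), short of the threshold (edgeR adjusted p = 0.0703). It passed in DESeq2 (adjusted p = 0.0187) and without control replicate 1 in edgeR (adjusted p = 0.0366).

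HBEGF was low, with 38 to 117 estimated counts per library. It had 3.61, 3.58 and 3.46 CPM in the controls, 2.40, 3.16 and 2.33 CPM at 50 µM, and 3.16, 5.44 and 1.88 CPM at 100 µM. The controls lay close together and the 100 µM libraries spread on both sides of them. Its log2 fold change was −0.43 ± 0.332 at 50 µM (95% interval −1.18 to 0.31; edgeR adjusted p = 0.388) and −0.02 ± 0.327 at 100 µM (−0.75 to 0.71; edgeR adjusted p = 0.97). BTC had 8.31, 8.91 and 8.49 CPM in the controls, 6.67, 6.22 and 6.05 CPM at 50 µM, and 8.67, 7.90 and 4.69 CPM at 100 µM. At 50 µM all BTC libraries lay under the controls, while at 100 µM replicate 3 alone was clearly lower and the groups overlapped. The log2 fold change of BTC was −0.44 ± 0.203 at 50 µM (95% interval −0.89 to 0.01; edgeR adjusted p = 0.165) and −0.27 ± 0.202 at 100 µM (edgeR adjusted p = 0.356). At 50 µM BTC passed without 100 µM replicate 3 (edgeR adjusted p = 0.013) and with only the 2 groups in the model (0.018).

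**Figure D1:**
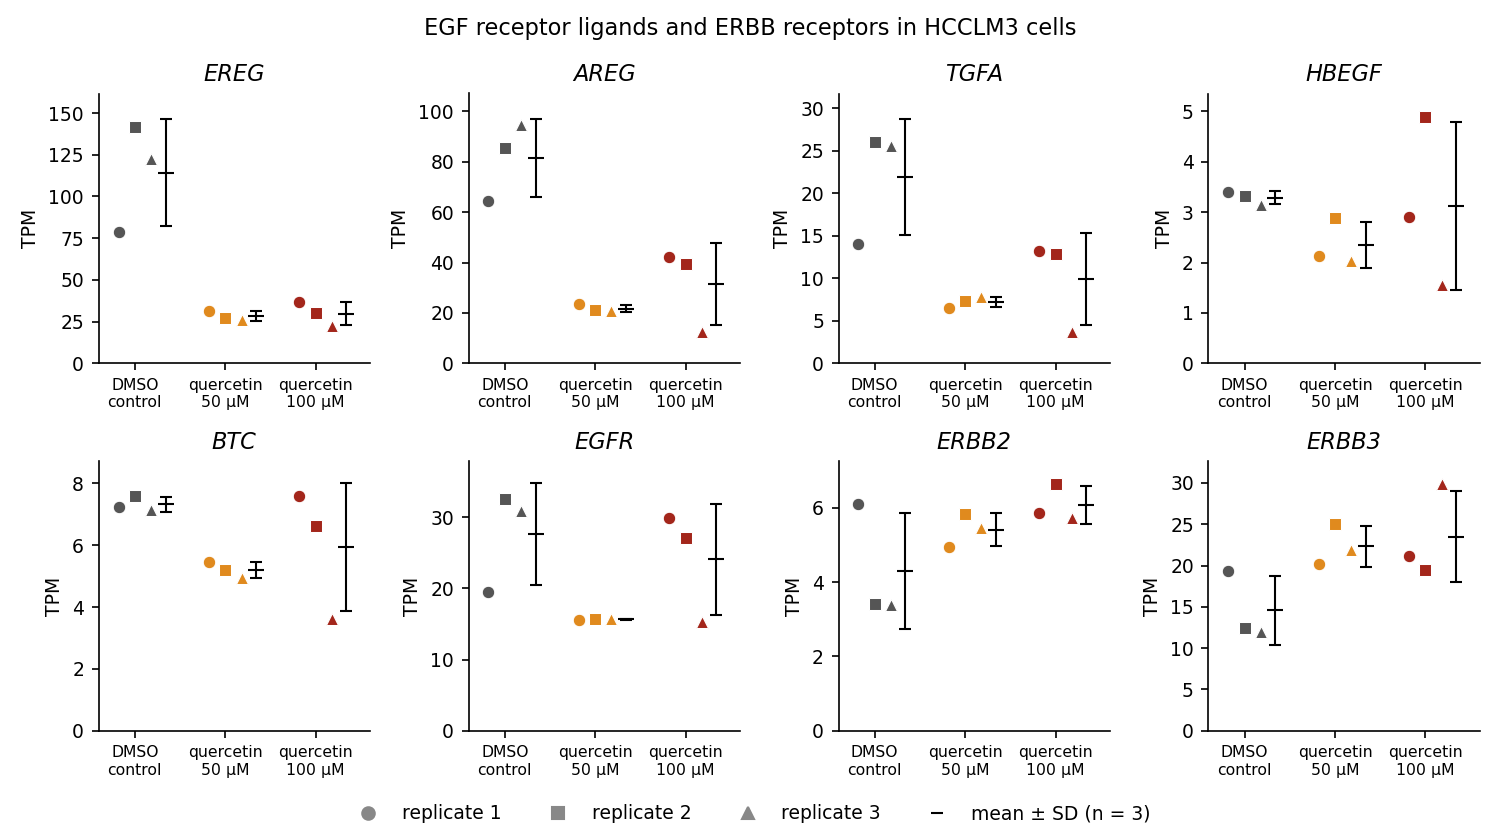
TPM of the 8 genes in each library; marker shape gives the replicate number, and black bars give mean ± SD of 3 libraries per group. EREG, AREG and TGFA are lower in every quercetin library than in every control, while EGFR is close together at 50 µM (15.6 to 15.7 TPM) and spread at 100 µM (15.2 to 29.9 TPM).

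EGFR, the receptor that all 5 ligands bind, had 82.8, 142 and 136 CPM in the controls, 71.6, 70.3 and 72.8 CPM at 50 µM, and 131, 120 and 74.9 CPM at 100 µM. All 50 µM libraries were below all controls, and at 100 µM replicates 1 and 2 were within the control range while replicate 3 was below it. At 50 µM EGFR averaged 71.6 ± 1.23 CPM, against 120.0 ± 32.4 CPM in the control (SD, n = 3 each), with a log2 fold change of −0.75 ± 0.23 that did not pass the test (95% interval −1.26 to −0.23; edgeR adjusted p = 0.0612). It passed without control replicate 1 (log2 fold change −0.95, edgeR adjusted p = 0.0134), without 100 µM replicate 3 (0.0155), with only the 2 groups in the model (0.0198) and in DESeq2 (0.0135). The log2 fold change of EGFR at 100 µM was −0.15 ± 0.228 (95% interval −0.66 to 0.36; edgeR adjusted p = 0.673).

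ERBB3, the neuregulin receptor, was the only one of the 8 genes called higher, and this was at 100 µM. It had 42.2, 24.3 and 23.7 CPM in the controls, 45.6, 54.7 and 51.0 CPM at 50 µM, and 47.9, 44.0 and 80.8 CPM at 100 µM. Every quercetin library was above every control; control replicate 1 was the highest control and 100 µM replicate 3 the highest of all. At 100 µM it averaged 57.6 ± 20.3 CPM, against 30.05 ± 10.5 CPM in the control, a log2 fold change of 0.94 ± 0.270, or 1.91-fold (edgeR adjusted p = 0.0369). It was not called under 9 of the 16 settings: on omitting control replicate 2 (edgeR adjusted p = 0.131) or 3 (0.133), without 50 µM replicate 1 (0.0586), 2 (0.061) or 3 (0.0632), without 100 µM replicate 3 (log2 fold change 0.62, 0.0839), with no filter (0.0507), with a replicate block (0.0745) and with only the 2 groups (0.101). At 50 µM its log2 fold change of 0.75 ± 0.269 (95% interval 0.14 to 1.35) missed the threshold (edgeR adjusted p = 0.0946), and passed it without control replicate 1 (1.08, edgeR adjusted p = 0.0183), without 100 µM replicate 3 (0.0265), with only the 2 groups (0.0372) and in DESeq2 (0.034).

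ERBB2, the shared partner receptor, was the least abundant receptor. It had 12.1, 7.26 and 7.22 CPM in the controls, 11.03, 12.7 and 12.4 CPM at 50 µM, and 12.4, 14.3 and 13.4 CPM at 100 µM. Control replicate 1 was in the range of the 50 µM group, and the 100 µM libraries lay above all controls by a small margin. Its log2 fold change was 0.44 ± 0.194 at 50 µM (95% interval 0.0084 to 0.88; edgeR adjusted p = 0.148) and 0.59 ± 0.194 at 100 µM (0.16 to 1.02; edgeR adjusted p = 0.0563). Without control replicate 1 ERBB2 passed at 50 µM (log2 fold change 0.74, edgeR adjusted p = 0.00622) and at 100 µM (0.89, edgeR adjusted p = 0.00243), and at 100 µM it also passed in DESeq2 (adjusted p = 0.0231).

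At 100 µM, 2 of the 8 genes were called lower (EREG and AREG) and 1 higher (ERBB3), where 10.3% of all tested genes were called lower and 10.7% higher. DESeq2 called 5, 3 lower and 2 higher, and 26.4% of all genes it tested. An unadjusted p under 0.05 in edgeR was found for 5 of the 8 and for 36.6% of all tested genes. Groups did not overlap for 3 members on the lower side and 2 on the higher side, against 18.6% and 17.3% of all tested genes. The median log2 fold change was −0.21 over the 8 genes and 0.00087 over all tested genes.

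Without control replicate 1 and 100 µM replicate 3 the spread was smaller and more genes were called throughout. These libraries were left out because they stood apart from their groups, so a smaller spread followed from the choice. The control then held only replicates 2 and 3, and the 100 µM group only replicates 1 and 2. Calls in this fit are therefore no separate support for those with all 9 libraries. At 50 µM 5 members were then lower and 2 higher, with 28.9% of all tested genes lower and 28.5% higher. EREG was 4.55-fold, AREG 4.01-fold, TGFA 3.47-fold and EGFR 1.94-fold lower, BTC changed by −0.46 on the log2 scale, and ERBB2 was 1.67-fold and ERBB3 2.1-fold higher. HBEGF did not pass (edgeR adjusted p = 0.0942). At 100 µM 3 members were lower and 2 higher, with 24.4% and 24.2% of all tested genes. Here EREG was 3.91-fold, AREG 2.18-fold and TGFA 1.96-fold lower, and ERBB2 was 1.85-fold and ERBB3 1.93-fold higher. EGFR did not pass at 100 µM (log2 fold change −0.14, edgeR adjusted p = 0.0738).

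**Figure D2:**
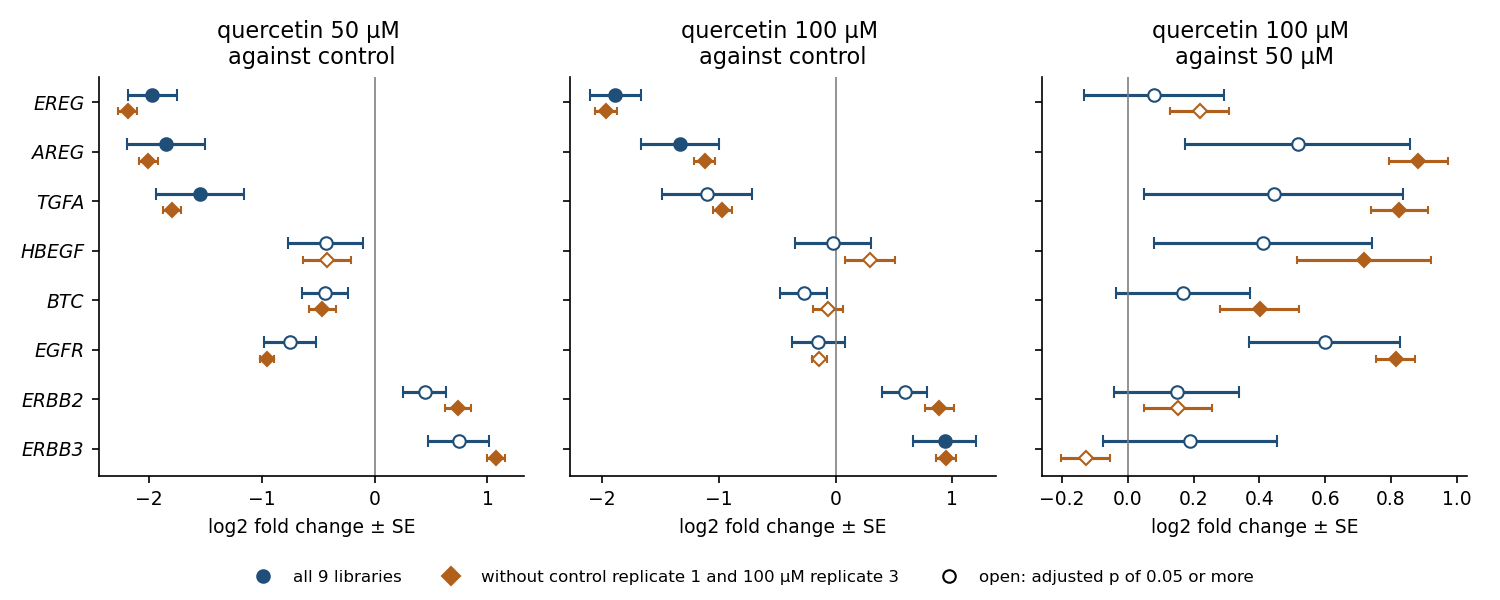
Log2 fold changes with standard errors (edgeR, horizontal axis) of the 8 genes in the 3 comparisons, with all 9 libraries (circles) and without control replicate 1 and 100 µM replicate 3 (diamonds); filled symbols have an adjusted p under 0.05. The ligands EREG, AREG and TGFA are on the lower side and the receptors ERBB2 and ERBB3 on the higher side of the control in both sets of libraries, and EGFR is nearer to 0 at 100 µM (−0.15) than at 50 µM (−0.75).

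Between the doses 0 of the 8 genes were called in edgeR and 0 in DESeq2, and 1 had an unadjusted p under 0.05. Of all tested genes edgeR called 4.15% and DESeq2 11.2%, and 22% had an unadjusted p under 0.05. The gene was EGFR, with a log2 fold change of 0.60 ± 0.229 at 100 µM over 50 µM (95% interval 0.09 to 1.11, edgeR unadjusted p = 0.0267, edgeR adjusted p = 0.164). Every 100 µM library was above every 50 µM library by a narrow margin. The lowest 100 µM library, replicate 3, had 74.9 CPM of EGFR and the highest 50 µM library 72.8 CPM. The share of all tested genes with such a separation between the doses was not computed. The interval for EREG ran from −0.40 to 0.56 around 0.08, for AREG from −0.25 to 1.28 and for TGFA from −0.44 to 1.33. These intervals include a difference of 2-fold for AREG and TGFA but not for EREG. Without 100 µM replicate 3, AREG (log2 fold change 0.87, edgeR adjusted p = 0.00405), EGFR (0.81, 0.0198), BTC (0.39, 0.0371) and HBEGF (0.71, 0.0462) were higher at 100 µM than at 50 µM, as were 14.1% of all tested genes. Without control replicate 1 as well, 5 members were higher, where 24.6% of all tested genes were: AREG 1.84-fold, TGFA 1.77-fold, EGFR 1.76-fold, HBEGF 1.64-fold and BTC 1.32-fold. In that fit EREG (log2 fold change 0.22, edgeR adjusted p = 0.0607), ERBB2 (0.15) and ERBB3 (−0.13) did not pass.

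EREG, AREG, TGFA and EGFR were lower, and ERBB3 higher, than in the rest of the group in both libraries that stood apart. Control replicate 1 had 0.581 times the mean of the other 2 controls for EREG, 0.694 for AREG, 0.526 for TGFA and 0.598 for EGFR, and 1.67 times for ERBB2 and 1.76 times for ERBB3, with HBEGF (1.02) and BTC (0.955) close to it. In that library 3.22% of 11934 genes with a mean of at least 1 CPM were at least 1.5-fold lower and 5.89% at least 1.5-fold higher. Quercetin 100 µM replicate 3 had 0.742 times the mean of the other 2 libraries for EREG, 0.338 for AREG, 0.312 for TGFA, 0.437 for HBEGF, 0.567 for BTC and 0.598 for EGFR. It had 1.01 times the mean for ERBB2 and 1.76 times for ERBB3. There 9.39% of the genes were at least 1.5-fold lower and 11.8% at least 1.5-fold higher.

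Per length, in TPM, EREG and AREG were the most abundant members in the control at 114 and 81.4 TPM, with overlapping ranges over the libraries. Overlap here compares these ranges and not the genes within a library. EREG was above AREG in each control library, at 78.84 and 64.25, 141.53 and 85.34, and 122.39 and 94.47 TPM in replicates 1, 2 and 3. EGFR (27.6 TPM), TGFA (21.9) and ERBB3 (14.6) came next, each overlapping its neighbour, then BTC (7.33), and last ERBB2 (4.30) and HBEGF (3.29), which overlapped. In each control library EGFR was also above TGFA, and ERBB2 above HBEGF. At 50 µM the order was EREG (28.2 TPM), ERBB3 (22.3), AREG (21.7), EGFR (15.7), TGFA (7.22), ERBB2 (5.41), BTC (5.20) and HBEGF (2.35), and only ERBB3 with AREG and ERBB2 with BTC overlapped among neighbours. At 100 µM AREG (31.4 TPM), EREG (29.8), EGFR (24.1) and ERBB3 (23.5) overlapped each with the next, and so did TGFA (9.92), ERBB2 (6.07), BTC (5.94) and HBEGF (3.12), with a gap between ERBB3 and TGFA. In each 100 µM library EREG was above EGFR, and BTC above HBEGF.

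The summed level of the 5 ligands was 228 ± 52.6 TPM in controls, 64.7 ± 3.95 TPM at 50 µM and 80.2 ± 31.6 TPM at 100 µM (SD, n = 3 each). The lowest control held 168 TPM and the highest quercetin library 102 TPM, so the groups did not overlap. The summed level of the 3 receptors was 46.5 ± 1.79, 43.4 ± 2.93 and 53.6 ± 3.12 TPM in the same order. Within that sum EGFR held 59.1 ± 13.7% in controls, 36.2 ± 2.31% at 50 µM and 44.5 ± 12.6% at 100 µM. ERBB3 held 31.5 ± 10.0%, 51.3 ± 2.16% and 44.2 ± 12.6%, so that it was the larger of the pair at 50 µM. EREG made up 49.7 ± 3.5% of the ligand sum in controls, 43.5 ± 1.83% at 50 µM and 39.7 ± 10.2% at 100 µM. No test was made on these sums and shares.

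In the authors' deposited table, whose log2 fold changes run quercetin over control, the values at 50 µM were −1.97 for EREG (q = 1.95e-26), −1.86 for AREG (q = 5.78e-28), −1.55 for TGFA (q = 1.73e-11), −0.75 for EGFR (q = 8.4e-05), 0.74 for ERBB3 (q = 0.000978) and −0.45 for BTC (q = 0.0438). The authors' deposited table gave HBEGF a q of 0.255 and ERBB2 a q of 0.121 at 50 µM. At 100 µM the authors' deposited table had q = 6.33e-12 for EREG, 0.00619 for AREG, 0.0235 for ERBB3 and 0.0649 for TGFA. Between the doses EGFR had a log2 fold change of 0.6 in the authors' deposited table (q = 0.0632).

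Of the other ligands and the fourth receptor, 3 of 7 genes were tested, and EPGN, NRG2, NRG3 and ERBB4 had at most 6.46 estimated counts in any library. Of the 3, 1 was called lower at each dose, where 6.31% of all tested genes were at 50 µM and 10.3% at 100 µM. This was NRG1, which encodes the ERBB3 ligand neuregulin 1. It fell 1.45-fold at 50 µM (edgeR adjusted p = 0.0292) and 1.87-fold at 100 µM (edgeR adjusted p = 0.0022). Its mean was 47.0 ± 6.26 CPM in controls, 32.4 ± 2.44 CPM at 50 µM and 25.1 ± 3.19 CPM at 100 µM (SD, n = 3 each). EGF itself was at 12.99 ± 1.02, 14.4 ± 0.617 and 14.2 ± 1.04 CPM in the same order and did not pass (edgeR adjusted p = 0.352 at 50 µM and 0.42 at 100 µM). Of the 6 genes of ligand release (ADAM10, ADAM17 and partners) 0 were called at either dose against control by edgeR or by DESeq2. At each dose 1 had an unadjusted p under 0.05 in edgeR. Of all tested genes edgeR called 6.31% lower and 5.28% higher at 50 µM, and 10.3% and 10.7% at 100 µM. DESeq2 called 20% and 26.4% at these doses, and 32.2% and 36.6% had an unadjusted p under 0.05 in edgeR. Without the 2 libraries that stood apart, 1 was higher and 2 lower at 50 µM (28.5% and 28.9% of all tested genes), and 3 higher and 0 lower at 100 µM (24.2% and 24.4%). Between the doses 4 of the 6 were then higher at 100 µM, where 24.6% of all tested genes were. With all 9 libraries, RHBDF1, an iRhom needed to mature ADAM17, was 1.6-fold higher at 100 µM than at 50 µM (edgeR adjusted p = 0.0417). The sheddase ADAM17 had means of 28.5 ± 1.64 CPM in controls, 29.1 ± 1.39 CPM at 50 µM and 31.7 ± 1.965 CPM at 100 µM.

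Of 25 genes of the signal chain from adaptors to RAS, ERK, PI3K and STAT3, 1 rose and 7 fell at 50 µM, where 5.28% of all tested genes rose and 6.31% fell, with a median log2 fold change of −0.16. SOS1, a guanine exchange factor for RAS, fell 2.71-fold (edgeR adjusted p = 0.0102), while the ERK1 gene MAPK3 rose 1.37-fold (edgeR adjusted p = 0.0478). At 100 µM 4 rose and 4 fell, against 10.7% and 10.3% of all tested genes, with a median of −0.10. SOS1 fell 2.18-fold (edgeR adjusted p = 0.00937) and PIK3R1, a regulatory PI3K subunit, 1.5-fold (edgeR adjusted p = 0.0104). MAPK3 rose 1.46-fold (edgeR adjusted p = 0.0168) and the transcription factor STAT3 1.45-fold (edgeR adjusted p = 0.00562). Between the doses 2 of the 25 were higher at 100 µM (4.15% of all tested genes were called), STAT3 with a log2 fold change of 0.55 (edgeR adjusted p = 0.0182), and the adaptor SHC1, with 0.30 (edgeR adjusted p = 0.0424). Without the 2 libraries that stood apart, 3 rose and 14 fell at 50 µM, with 28.5% and 28.9% of all tested genes, and 8 rose and 5 fell at 100 µM, with 24.2% and 24.4%.

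Of 19 feedback inhibitors (DUSP phosphatases, Sprouty and SPRED proteins, CBL ligases and the like), 0 rose and 2 fell at 50 µM in edgeR (5.28% and 6.31% of all tested genes), with a median log2 fold change of −0.28. DESeq2 called 0 higher and 5 lower, and 20% of all genes in either direction. At an unadjusted p under 0.05 in edgeR 1 was higher and 12 lower, with 32.2% of all tested genes in either direction. DUSP5, a nuclear ERK phosphatase, fell 1.65-fold (edgeR adjusted p = 0.0484) and SPRED1, an inhibitor of RAS signalling, 1.32-fold (edgeR adjusted p = 0.0131). At 100 µM 1 rose and 1 fell in edgeR (10.7% and 10.3% of all tested genes), against 1 and 3 in DESeq2, which called 26.4% of all genes. SPRED1 had a log2 fold change of −0.32 (edgeR adjusted p = 0.0132) and CBLB, a ubiquitin ligase, rose 1.54-fold (edgeR adjusted p = 0.0202), with a median of −0.17 over the list. CBLB was also the 1 gene of the list called between the doses, higher at 100 µM, where 4.15% of all tested genes were called, with a log2 fold change of 0.67 (edgeR adjusted p = 0.0438). Without the 2 libraries, 3 rose and 15 fell at 50 µM, with 28.5% and 28.9% of all tested genes, and 1 rose and 7 fell at 100 µM, with 24.2% and 24.4%.

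Of 20 genes that ERK signalling is known to induce, 19 were tested, and 0 rose and 6 fell at 50 µM in edgeR (5.28% and 6.31% of all tested genes), with a median log2 fold change of −0.07. DESeq2 also called 0 higher and 6 lower, with 20% of all genes called in either direction. At an unadjusted p under 0.05 in edgeR 1 was higher and 6 lower, with 32.2% of all tested genes in either direction. EGR2, an immediate early transcription factor, fell 3.82-fold (edgeR adjusted p = 0.0287) and the AP-1 subunit gene FOSL1 2.07-fold (edgeR adjusted p = 0.0152). EGR2 was low, at 3.06, 9.09 and 8.75 CPM in control replicates 1, 2 and 3, and 1.62 to 2.21 CPM at 50 µM. At 100 µM 3 rose and 2 fell, against 10.7% and 10.3% of all tested genes. The AP-1 subunit genes FOSB and FOS rose 3.2-fold and 2.2-fold (edgeR adjusted p = 0.0159 and 0.0438). Replicate 3 at 100 µM was the lowest of its group for FOSB and the highest for FOS. FOSB was low, at 5.42, 4.51 and 1.73 CPM in replicates 1, 2 and 3, with controls at 0.959 to 1.41 CPM. FOS had 7.35, 8.09 and 17.8 CPM, with controls at 3.56 to 6.48 CPM. FOSL1 fell 1.71-fold (edgeR adjusted p = 0.0212) and MYC 1.26-fold (edgeR adjusted p = 0.0142). Between the doses 3 were higher and 1 lower at 100 µM, with 4.15% of all tested genes called in either direction, among them PLAUR, the urokinase receptor gene, 2.07-fold higher (edgeR adjusted p = 0.012), IER3 with a log2 fold change of 0.51 (edgeR adjusted p = 0.012) and MYC with −0.42 (edgeR adjusted p = 0.0201). Without the 2 libraries, 3 rose and 8 fell at 50 µM and 6 rose and 6 fell at 100 µM, with the shares of all tested genes at 28.5% and 28.9% at 50 µM and 24.2% and 24.4% at 100 µM.

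**Figure D3:**
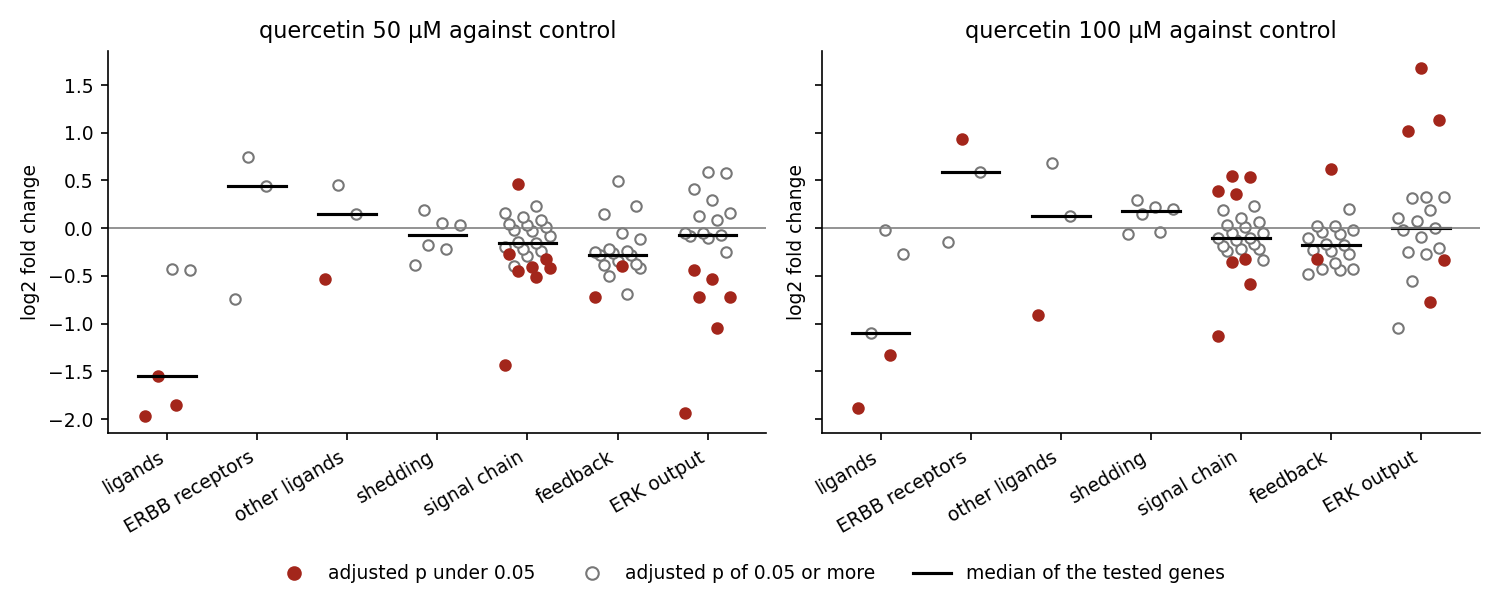
Log2 fold change (vertical axis) of every tested gene of the ligand, receptor and pathway lists at 50 µM (left) and 100 µM (right) against control; filled points have an adjusted p under 0.05 and black lines are medians. The 5 ligands are all on the lower side at 50 µM, with a median of −1.55. At 100 µM their median is −1.10, but HBEGF (−0.02) and BTC (−0.27) overlap the control. The medians of the signal chain, feedback and ERK output lists lie between −0.28 and 0.0044.

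The likeness of patterns was measured as the root mean square difference between log2 CPM values centred on their mean, over the 9 libraries. Among the members AREG and TGFA were the most alike (0.215), followed by BTC and EGFR (0.262), HBEGF and BTC (0.27), and ERBB2 and ERBB3 (0.275). EREG differed from AREG by 0.368 and from ERBB3 by 1.42. Among 10463 genes with a mean of at least 5 CPM, EREG was nearest to ENPP2 (0.181), NPR3 (0.232) and VDR (0.305), against a median distance of 0.93 over these genes. AREG was nearest to VDR (0.175), KRT80 (0.262) and FAM102A (0.264), with a median of 0.912. TGFA was nearest to FAM102A (0.148), FLVCR2 (0.174) and KRT80 (0.189), with a median of 0.836. The nearest to ERBB3 were STAP2 (0.067), PELI1 (0.0912) and FN1 (0.0943), with a median of 0.559. These distances describe the same 9 libraries, including the 2 that stood apart.

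Within 500 kb of the span from EREG to BTC the table listed 12 genes, of which 8 were tested. EREG and AREG were the 2 called, both lower, at 50 µM and at 100 µM. Over all tested genes 6.31% were called lower and 5.28% higher at 50 µM, and 10.3% and 10.7% at 100 µM. The window was drawn around these members, so it gives no separate support for their calls. MTHFD2L, a mitochondrial folate enzyme gene below EREG, had log2 fold changes of 0.06 ± 0.115 at 50 µM and −0.19 ± 0.116 at 100 µM (edgeR adjusted p = 0.746 and 0.268). The 4 chemokine genes CXCL1, CXCL2, CXCL3 and CXCL5 had log2 fold changes from 0.18 to 0.93 at 50 µM and from 0.73 to 1.75 at 100 µM, with standard errors up to 0.999, and none passed (edgeR adjusted p of 0.217 or more).

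**Figure D4:**
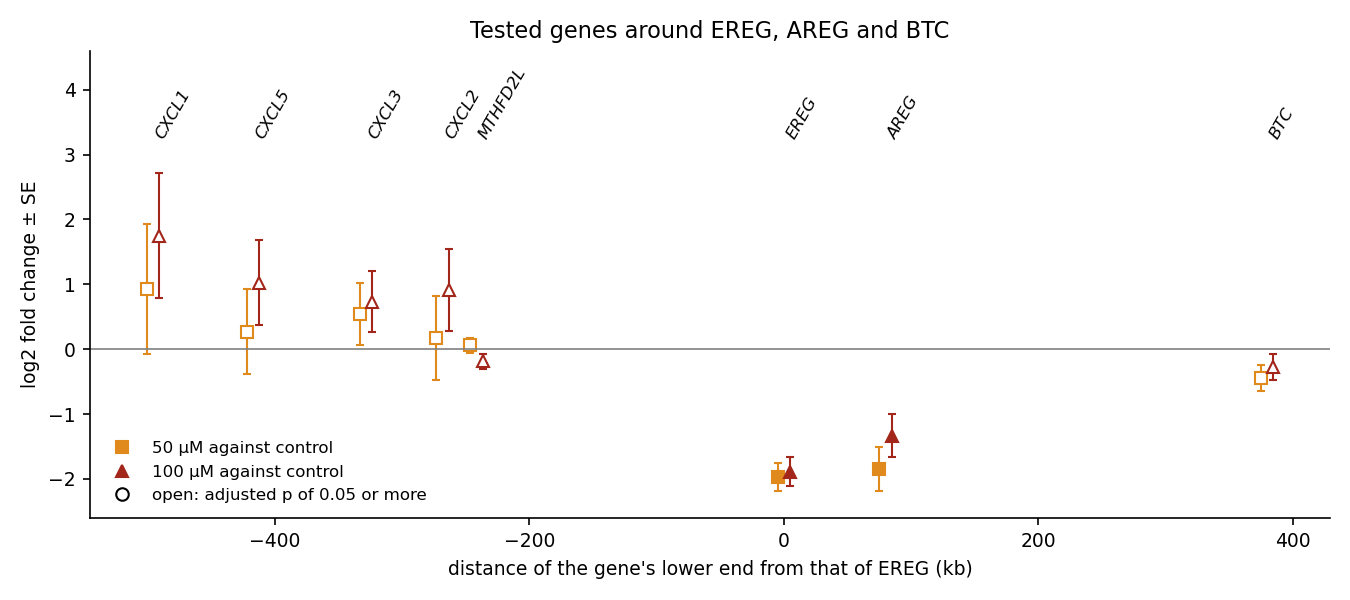
Log2 fold changes ± SE at 50 µM (squares) and 100 µM (triangles) against control of the 8 tested genes around EREG, AREG and BTC, by distance from EREG in kb; filled symbols have an adjusted p under 0.05. EREG and AREG are the 2 genes with filled symbols, BTC lies slightly under 0, and the chemokine genes lie above 0 with wide error bars.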

How the data were processed

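Per the labels' protocols, poly(A) RNA of 9 HCCLM3 samples was bound to oligo(dT) beads and the amplified libraries went through a duplex-specific nuclease. That enzyme depletes abundant transcripts and can compress differences between genes. The extraction text was written for tissue, while the samples are cultured cells. Per the submitters' processing notes RSEM 1.2.12, HISAT2 2.0.4 and Bowtie2 2.2.5 were run with GRCh38.p13; the sources used here give neither their roles nor the strand setting. A series-wide table deposited by the authors holds expected counts (estimated counts per gene, not normalised) and each library's TPM. Of the expected counts 26.84% were whole within 1e-06. The table also holds the authors' log2 fold changes and q-values. Its headers name DESeq2 for the q-values and no tool for the log2 fold changes. The table's 30 other value columns were not used.

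Expected counts were rounded. Genes were kept by edgeR's filterByExpr (minimum count 10, minimum total 15, share 0.7), which removed 4660 genes with 0.042% of the counts. All 9 libraries, scaled by TMM, entered 1 fit with a term per group, tested by edgeR's robust quasi-likelihood F test (two-sided; R 4.3.3 with edgeR 4.0.16 and limma 3.58.1), and p-values were adjusted over 12832 genes (Benjamini-Hochberg) with 0.05 as threshold. Dispersion was 0.0206 in common, so counts varied by 14.4% between libraries beyond sampling; log2 fold changes had a median standard error of 0.134, computed from the estimate and its F value. The alternatives were DESeq2 1.42.0, its size factors, no filter, only the 2 groups compared, a replicate block, limma on log2(TPM + 1), leaving out each library, and leaving out both libraries that stood apart. The code was tested on simulated data.

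The members, the pathway and marker lists and the omission of both libraries were chosen with earlier results of these data known. From each pathway list and comparison up to 2 called genes with the largest rise and up to 2 with the largest fall were named, with a mean of at least 1 CPM; the result of 1 gene that this rule names is not reported here. For each member called, the 3 genes nearest in pattern were named, with a prior count of 2. APOA1 and other markers with low counts were counted in TPM sums but not tested. RefSeq promoter windows were found for 7 of the 8 genes.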

Additional observations from a re-analysis of the deposited data

How the results depend on the processing

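Of the log2 fold changes of single members under the alternatives, 320 kept their direction and their side of the threshold, 25 lost a call, 30 gained one and 9 turned in sign, all 9 for values that did not pass the test with or without the change. At 50 µM against control edgeR called 1488 genes and 3 members; DESeq2 called 2567 and 5, a fit of only the 2 groups 4269 and 6, and the fit without both libraries that stood apart 7398 and 7. Leaving out each library in turn gave 90 to 4739 genes and 1 to 6 members. At 100 µM against control the counts were 2692 genes and 3 members; DESeq2 called 5 members, the fit of only the 2 groups 1024 genes and 1 member, the fit without both libraries 6272 and 5, and the omissions 1055 to 3856 genes and 1 to 5 members. Between the doses they were 532 genes and 0 members; DESeq2 called 1382 genes, the fit of only the 2 groups 251, the fit without both libraries 6105 and 5 members, and the omissions 43 to 3561 genes and 0 to 4 members. With the replicate numbers as a block 427 genes were called at 50 µM, 1672 at 100 µM and 109 between the doses, and TGFA at 50 µM and ERBB3 at 100 µM lost their calls. Whether the numbers pair the samples is not stated in the labels. Deviations from the group means correlated at -0.464 to 0.276 between same-numbered libraries and at -0.409 to 0.533 between the others. These ranges overlap and include the libraries that stood apart, so they cannot decide whether the samples are paired. Turned in sign at 100 µM against control were HBEGF, at 0.30 without both libraries and −0.49 to 0.28 over the omissions, and EGFR, at −0.35 to 0.0709. Between the doses ERBB3 was −0.13 without both libraries and −0.14 to 0.35 over the omissions, EREG −0.056 to 0.21, HBEGF −0.0599 to 0.71 and BTC −0.0013 to 0.39. Omitting a library changes both the samples and the estimated spread, and beyond that the cause was not tested. HBEGF had the fewest estimated counts of the members, at 38 to 117 per library. Its standard error at 50 µM against control (0.332) was below those of AREG (0.343) and TGFA (0.394), and the part of depth was not tested.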
